A study of Triticum aestivum with 10 samples.

Results

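APRT and AdSS, a pair of wheat genes whose enzymes act on the salvage and the de novo route to adenosine monophosphate (AMP), were followed in anthers of the thermosensitive genic male sterile (TGMS) line BS366. The probe-to-gene table of the array pairs 1 probe set with APRT (LOC543227, adenine phosphoribosyltransferase) and 1 with AdSS (LOC543243, adenylosuccinate synthetase), and both were taken over all 10 arrays. These are 2 of the 771 genes in that table and 2 of the 61179 probe sets left once controls were set aside, and both were among the 30590 bright enough to be tested. Bread wheat is hexaploid, so a probe set may detect the A, B and D copies of its gene together, and these values cannot tell the copies apart. No chromosomal position is given because the array files name no genome build.

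APRT joins the free base adenine to phosphoribosyl pyrophosphate and so returns adenine to the nucleotide pool, the salvage route to AMP. In plants the same enzyme also converts cytokinin bases to their nucleotides, and Arabidopsis mutants that lack the main APRT gene are male sterile. AdSS joins aspartate to inosine monophosphate at the cost of GTP, the committed step from inosine monophosphate to AMP in de novo purine synthesis.

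BS366 forms fertile pollen in warmth and sterile pollen when cold falls on the anthers around meiosis. It is a single line that was selected from a natural mutant, and no line without the sterility trait was on these arrays, so a response to cold and the sterility of the line cannot be told apart. Plants were vernalized in the field and kept in growth chambers with 12 h of light per day, at 20 °C throughout for fertile anthers and with 5 days at 10 °C for sterile anthers. Anthers of 5 lengths, about 3.0, 2.5, 2.2, 2.0 and 1.5 mm, were taken from both treatments. The paper describes them as sampled during meiosis, but it places the change from mitosis to meiosis I at 2.2 mm. Total RNA of each of the 10 collections was hybridized to 1 Affymetrix Wheat Genome Array.

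No value at one length was thus replicated, and the lengths took the place of replicates when treatments were compared. Length pairs the arrays, but anthers of equal length need not be at the same stage in warmth and in cold. Values are MAS5 signals, the brightness of a probe set on a linear scale, and each probe set is compared only with itself. In whole anthers, fewer cells of a type and less RNA per cell cannot be told apart.

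Mean signals of the 10 arrays ran from 118 to 125. The fertile 2.2-mm array stood apart in its spiked controls: its mean over the 27 hybridization controls was 771, against 243 to 356 on the other 9 arrays, and its mean over the 9 poly-A controls was 69.2, against 128 to 679. The fertile 3.0-mm array had the lowest mean correlation with the others (r = 0.87, others 0.91 to 0.94, over log2 signals). The 18S rRNA signal was higher in sterile than in fertile anthers at each length, at 32.3 to 2833 against 2.22 to 315. Both maxima were those of the 1.5-mm arrays, and the other arrays lay at 32.3 to 135 against 2.22 to 9.26. The sterile 1.5-mm array, with 2833, was also the array on which APRT had its highest signal (2137). The 4 probe sets of the tapetal genes TaRAFTIN1a and TaRAFTIN1b were all bright enough to be tested and summed to 5494 to 19133 in fertile and 1826 to 9189 in sterile anthers. Core histone probe sets, 18 of 18 tested, went the other way (9334 to 35742 against 26508 to 43199), while 34 photosynthesis probe sets, 13 of them tested, summed to 14060 to 25789 against 12305 to 17636 and 4 starch probe sets, 2 of them tested, to 577 to 1250 against 820 to 1009. The part of these differences in the values of APRT and AdSS was not tested, and no meiosis marker was in the table.

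The signal of APRT in the fertile series was 1616 in 1.5-mm, 1431 in 2.0-mm, 1322 in 2.2-mm, 1504 in 2.5-mm and 1861 in 3.0-mm anthers. It was thus lowest in the middle of the series and highest in the longest anthers. In the sterile series it was 2137 in 1.5-mm, 1861 in 2.0-mm, 1656 in 2.2-mm, 1820 in 2.5-mm and 1648 in 3.0-mm anthers. The sterile series had its highest value in the shortest anthers and nearly equal lowest values at 2.2 and 3.0 mm. Each of the 5 sterile signals exceeded the 4 fertile signals from 1.5 to 2.5 mm, and the fertile 3.0-mm value alone lay inside the sterile range.

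The signal of AdSS in the fertile series was 782 in 1.5-mm, 1011 in 2.0-mm, 471 in 2.2-mm, 617 in 2.5-mm and 777 in 3.0-mm anthers. The highest and the lowest value of the gene on any array were thus neighbours in this series, and the shortest and longest fertile anthers had almost the same signal. In the sterile series it was 739 in 1.5-mm, 775 in 2.0-mm, 794 in 2.2-mm, 757 in 2.5-mm and 706 in 3.0-mm anthers. All 5 sterile values lay within the range of the fertile ones.

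**Figure D1:**
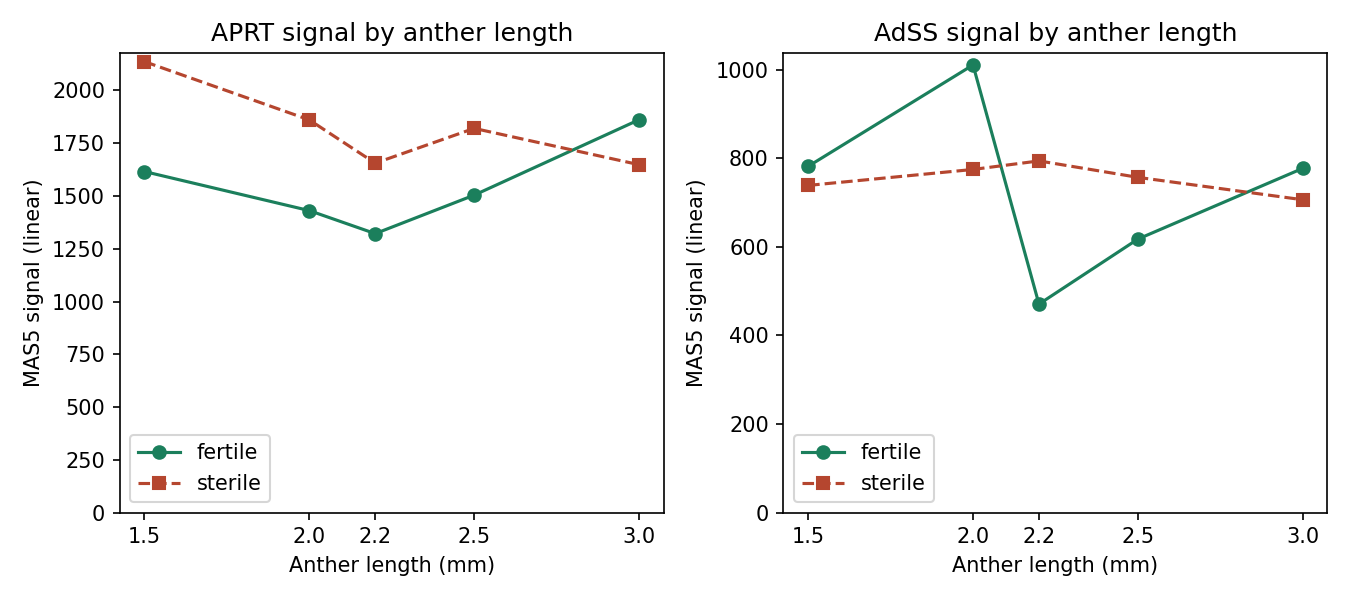
MAS5 signal (linear scale, from 0) of APRT and AdSS against anther length in mm, 1 point per array, with the fertile and the sterile series each joined by a line. The APRT series cross between 2.5 and 3.0 mm, with 1504 against 1820 and then 1861 against 1648, and AdSS dips to 471 in fertile 2.2-mm anthers while its sterile series stays between 706 and 794.

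From one length to the next, APRT in fertile anthers was 1.13-fold lower at 2.0 than at 1.5 mm, a further 1.08-fold lower at 2.2 mm, then 1.14-fold higher at 2.5 mm and 1.24-fold higher again at 3.0 mm. In sterile anthers the same steps were 1.15-fold lower, 1.12-fold lower, 1.10-fold higher and 1.10-fold lower. The first 3 steps thus had the same direction in both treatments and the last one had opposite directions. From the shortest to the longest anthers, APRT was 1.15-fold higher in the fertile series and 1.30-fold lower in the sterile series. A fertile maximum at 3.0 mm together with a sterile maximum at 1.5 mm was also seen for 5.83% of the tested probe sets.

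The largest step of either gene was that of AdSS between fertile anthers of 2.0 and 2.2 mm, where the signal was 2.15-fold lower. A fall of at least 2-fold there was seen for 12.7% of the tested probe sets, so the step was not rare on these arrays. It was preceded by a 1.29-fold higher and followed by 1.31- and 1.26-fold higher values, whereas the largest step in the sterile series was 1.07-fold. The 471 of fertile 2.2-mm anthers was read on the array whose hybridization and poly-A controls stood apart, and APRT also had its lowest signal on that array. A fertile minimum at 2.2 mm was shared by 33.8% of the tested probe sets.

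APRT varied less than 2-fold in either treatment. Its highest fertile signal was 1.41-fold its lowest, its highest sterile signal 1.30-fold its lowest, and over all 10 arrays the ratio was 1.62. The SD of its log2 signals was 0.19 in fertile and 0.15 in sterile anthers, against medians of 0.41 and 0.27 over the tested probe sets. Over the 10 arrays its SD was 0.21, and 8.18% of the tested probe sets, or 22.4% of the 3059 brightest, to which both genes belong, had a lower one. Among those brightest probe sets the share with a lower SD was 16.3% in fertile and 39.7% in sterile anthers.

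AdSS differed between treatments in its spread rather than in its middle value, with medians of 777 in fertile and 757 in sterile anthers. Its highest fertile signal was 2.15-fold its lowest, while in sterile anthers the ratio was 1.12. The SD of its log2 signals was 0.41 in fertile anthers, equal to the median of the tested probe sets and above 65.4% of the 3059 brightest, and 0.065 in sterile anthers, where 1.40% of all tested probe sets and 4.71% of the 3059 brightest had a lower one. A ratio of at least 2-fold between the highest and lowest array was found for 51.7% of the tested probe sets in the fertile and for 25.0% in the sterile series. A wider fertile than sterile range was the rule on these arrays, at 75.5% of the tested probe sets and 83.9% of the 3059 brightest, and the difference in spread of AdSS was not tested.

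**Figure D2:**
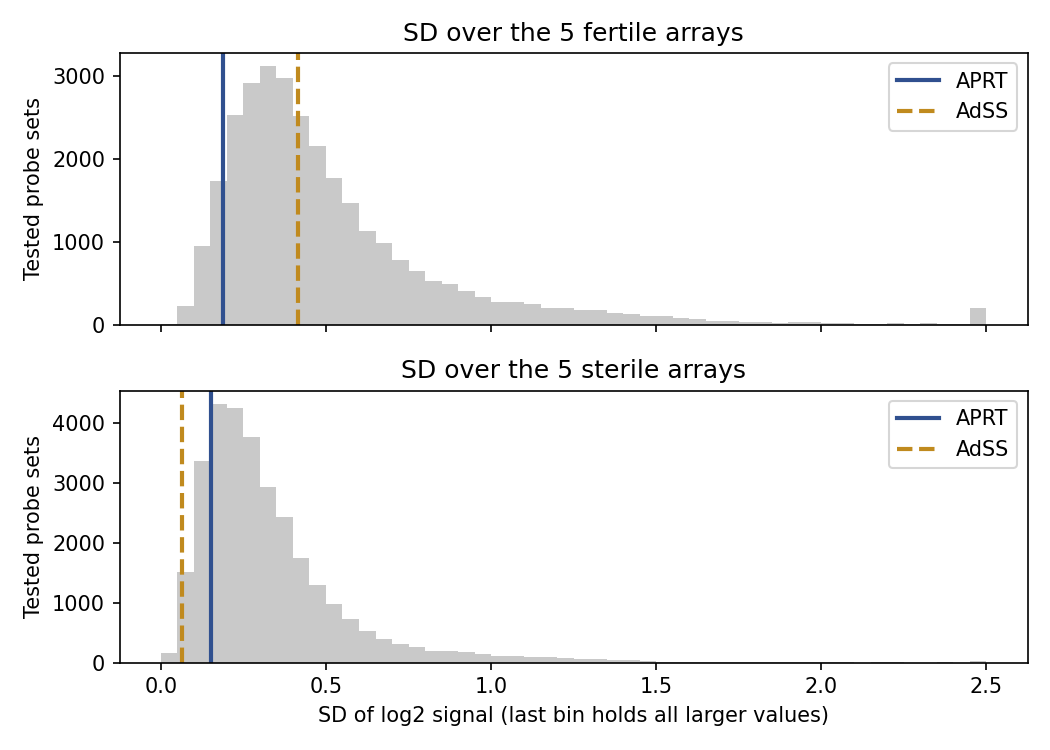
Standard deviation of log2 signal over the 5 lengths in fertile and in sterile anthers for the tested probe sets, as histograms whose last bin holds all larger values, with lines at APRT and AdSS. AdSS lies at 0.41 in fertile anthers, near the middle of the histogram, and at 0.065 in sterile anthers, in the lowest 1.40%, whereas APRT lies at 0.19 and 0.15.

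Whether cold changed APRT was asked at each length and over the 5 lengths together. Sterile minus fertile, the log2 difference was 0.40 in 1.5-mm, 0.38 in 2.0-mm, 0.32 in 2.2-mm and 0.28 in 2.5-mm anthers, which are 1.32-, 1.30-, 1.25- and 1.21-fold higher signals in sterile anthers. At 3.0 mm it was -0.18, a 1.13-fold lower signal, which shrank to -0.03 when each array was centred on its own median. APRT was thus higher in sterile anthers at 4 of 5 lengths, also under quantile normalization and centring. Its difference was smaller at each longer length as deposited, but this order was lost with centring (0.24 at 2.2 mm and 0.41 at 2.5 mm) and with quantile normalization (0.31 at 1.5 mm and 0.37 at 2.0 mm). This order of signs, higher up to 2.5 mm and lower at 3.0 mm, was shared by 4.01% of the tested probe sets.

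For AdSS the differences changed sign along the series. Sterile minus fertile, the log2 difference was -0.08 in 1.5-mm, -0.38 in 2.0-mm, 0.75 in 2.2-mm, 0.29 in 2.5-mm and -0.14 in 3.0-mm anthers. In folds, the sterile signal was 1.06- and 1.30-fold lower at 1.5 and 2.0 mm, 1.69- and 1.23-fold higher at 2.2 and 2.5 mm, and 1.10-fold lower at 3.0 mm. AdSS was thus higher in sterile anthers at 2 of 5 lengths, and the largest of these differences rested on the low fertile value at 2.2 mm. Its order of signs as deposited was shared by 3.47% of the tested probe sets. When each array was centred on its own median, the difference of AdSS turned to 0.08 at 1.5 mm and 0.01 at 3.0 mm, so its direction at these lengths was not settled.

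Neither gene differed 2-fold between treatments at any length. The share of tested probe sets that did was 9.04% in 1.5-mm, 9.07% in 2.0-mm, 17.7% in 2.2-mm, 16.7% in 2.5-mm and 22.0% in 3.0-mm anthers. The median difference over the tested probe sets was -0.01, -0.13, 0.17, -0.06 and -0.01 at these lengths. Set against all tested probe sets by size alone, the difference of APRT exceeded 58.8% of them at 1.5 mm and 20.6% at 3.0 mm. That of AdSS exceeded 13.8% at 1.5 mm and 70.8% at 2.2 mm, its largest share.

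**Figure D3:**
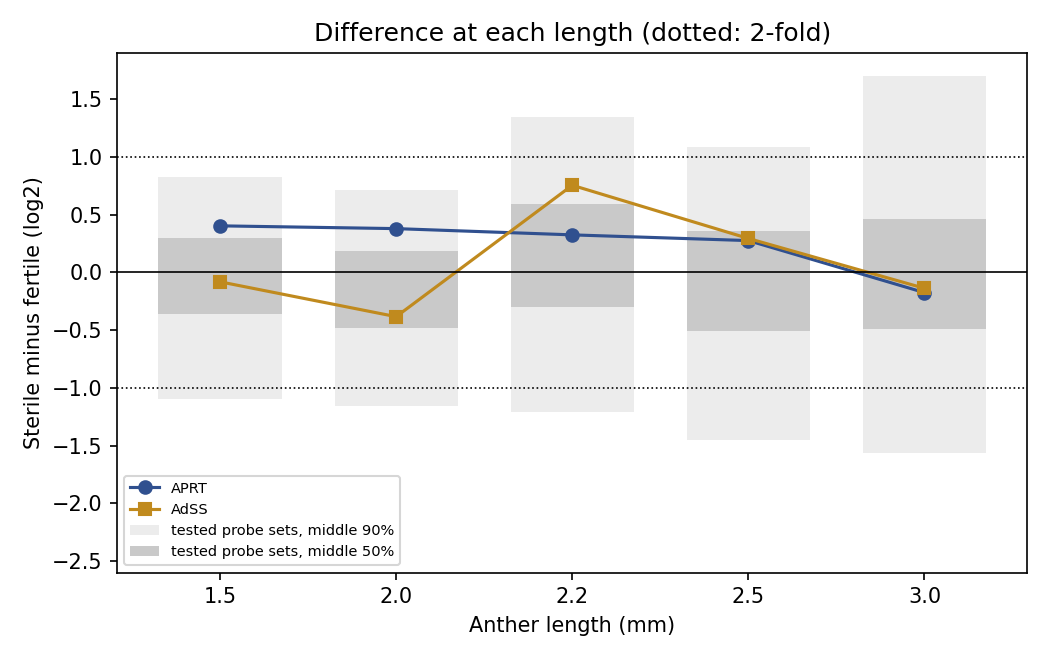
Sterile minus fertile difference in log2 signal against anther length in mm for APRT and AdSS, 1 value per length at equal spacing, with dark bars for the middle 50% of the tested probe sets, light bars that leave out 5% at each end, and dotted lines at 2-fold. APRT goes from 0.40 at 1.5 mm to -0.18 at 3.0 mm, and AdSS has its highest value, 0.75, at 2.2 mm.

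Over the 5 lengths, the mean log2 difference of APRT was 0.24 (SE 0.13, 95% interval -0.05 to 0.54), a 1.18-fold higher signal in sterile anthers, and it did not pass the threshold (adjusted p = 0.37, limma with Benjamini-Hochberg adjustment over 30590 probe sets). The 5 differences had an SD of 0.24, as large as their mean. An exact two-sided sign-flip permutation test over the 5 lengths gave p = 0.125, where the smallest p that 5 lengths allow is 0.0625. The interval, 0.963- to 1.45-fold, holds equal levels as well as a moderate increase. Without the 3.0-mm pair the mean was 0.35 (adjusted p = 0.16).

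The mean log2 difference of AdSS was 0.09 (SE 0.18, 95% interval -0.34 to 0.51), a 1.06-fold higher signal in sterile anthers with an interval of 0.792- to 1.43-fold, and it too did not pass (adjusted p = 0.84). The SD of its 5 differences was 0.44, and the exact sign-flip permutation test gave p = 0.75. The positive sign rested on 1 pair of arrays, since the mean was -0.08 without the 2.2-mm pair. Of all tested probe sets, 76 or 0.248% passed this comparison.

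A straight line over length was fitted for each treatment to ask whether the genes rose or fell as anthers grew. Both lines came from a single fit of all 10 arrays with a shared residual spread, so each gene had the same SE in both treatments. For AdSS, whose SD was 0.41 in fertile and 0.065 in sterile anthers, the sterile interval thus also carries the fertile scatter. In fertile anthers the slope was 0.15 log2 units per mm for APRT (SE 0.16, 95% interval -0.21 to 0.50, adjusted p = 0.66). For AdSS it was -0.12 (SE 0.27, -0.72 to 0.47, adjusted p = 0.85), and it went from -0.53 without the 3.0-mm pair to -0.00058 without the 2.0-mm pair. Neither passed, where 5.32% of the tested probe sets did. The sign of the APRT slope rested on the longest anthers, as the slope was -0.15 without the 3.0-mm pair and 0.44 without the 1.5-mm pair.

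In sterile anthers the slope was -0.23 for APRT (SE 0.16, -0.58 to 0.13, adjusted p = 0.78) and -0.05 for AdSS (SE 0.27, -0.64 to 0.55, adjusted p = 0.99). The sterile minus fertile slope was -0.37 for APRT (SE 0.23, -0.87 to 0.13, adjusted p = 0.56) and 0.07 for AdSS (SE 0.38, -0.77 to 0.92, adjusted p = 0.97). The opposite signs of the APRT slopes were thus not shown to differ. Without the 3.0-mm pair their difference was -0.13 (adjusted p = 0.93), and without the 1.5-mm pair it was -0.55 (adjusted p = 0.59). limma called 0 of the tested probe sets (0%) for the sterile slope and 0 (0%) for the difference of slopes, while 2447 and 3653 had an unadjusted p below 0.05.

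A line describes poorly a course with its lowest point in the middle. A test of any difference among the 5 lengths, chosen after the values were seen, took a single course common to both treatments. It gave F = 0.75 for APRT and F = 0.93 for AdSS, each with an adjusted p of 0.92 from limma. A course found in a single treatment, such as the AdSS dip in fertile anthers, goes partly into its scatter. The test thus cannot decide on the course within either series. It called 0 of the tested probe sets (0%), and 1723 had an unadjusted p below 0.05.

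**Figure D4:**
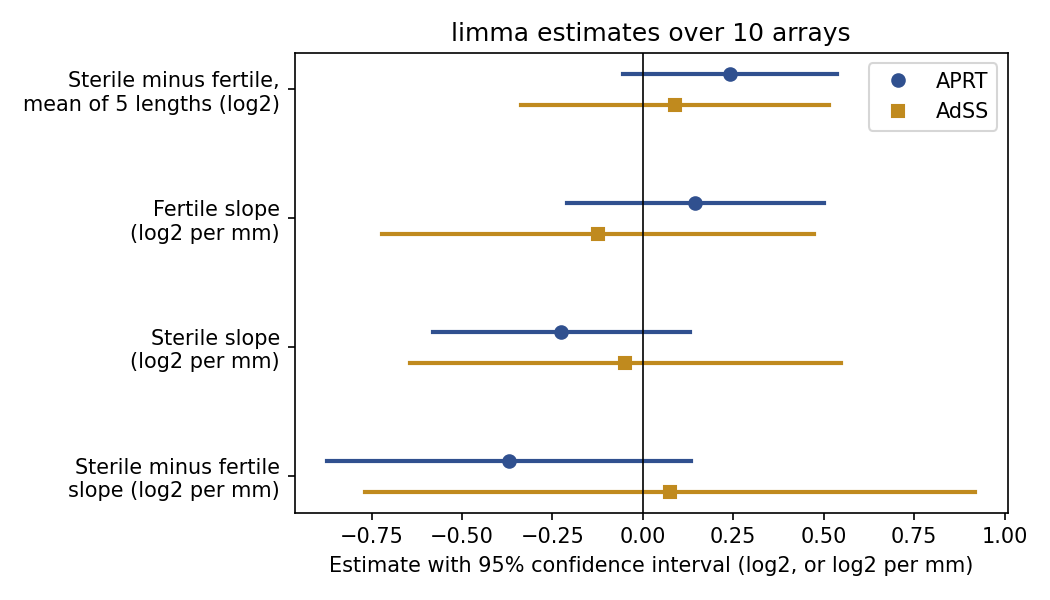
limma estimates with 95% intervals for APRT and AdSS: the mean sterile minus fertile difference in log2 units, and the fertile slope, the sterile slope and their difference in log2 units per mm. Every interval includes 0, the narrowest being that of the APRT difference, -0.05 to 0.54.

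The sterile 2.2- and 2.5-mm arrays correlated more closely with the fertile 1.5-mm array (r = 0.95 for both, over log2 signals of all probe sets but controls) than with fertile anthers of equal length (r = 0.91 for both). The fertile 2.2- and 2.5-mm arrays also had lower mean correlations with all other arrays (r = 0.91 and 0.92) than the fertile 1.5-mm array (r = 0.93). Fertile 2.0-mm anthers (mean r = 0.94) were not compared in this way, so no match in stage is singled out. Set against fertile 1.5-mm anthers, a comparison chosen after the values were seen, APRT was 1.02-fold higher in sterile 2.2-mm and 1.13-fold higher in sterile 2.5-mm anthers. At equal lengths these values were 1.25- and 1.21-fold. AdSS was 1.02-fold higher and 1.03-fold lower, where the comparison at equal lengths gave 1.69- and 1.23-fold higher. Both genes thus lay closer to fertile 1.5-mm anthers than to fertile anthers of the same length in these 4 comparisons, each of single arrays. The same held for fertile 3.0-mm anthers, at 1861 for APRT and 777 for AdSS. The sterile 2.2- and 2.5-mm signals were 1656 and 1820 for APRT and 794 and 757 for AdSS. The nearness was thus not particular to the shortest fertile anthers.

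Of 20 symbols of purine synthesis, salvage and adenosine metabolism that were looked up in the table, SAHH was the only other one found. SAHH, S-adenosylhomocysteine hydrolase, releases the adenosine that methylation reactions leave bound to homocysteine. It has 2 probe sets. Of the 4 probe sets of the list, limma called 0 in the treatment comparison (0 also at an unadjusted p below 0.05) and 1, of SAHH, for the fertile slope (2 at an unadjusted p below 0.05, both of SAHH). Over all tested probe sets these shares were 0.248% (17.5% unadjusted) for treatment and 5.32% (21.6% unadjusted) for the fertile slope. On the SAHH probe set that passed, the fertile signals were 1739, 2303, 2877, 2796 and 4593 from the shortest to the longest anthers, and the sterile ones were 1992, 1991, 2092, 2013 and 2369.

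This SAHH probe set thus rose with length in fertile anthers, by 0.89 log2 units per mm (SE 0.14, limma adjusted p = 0.013). The call was lost without the 1.5-, the 2.0- or the 3.0-mm pair (adjusted p = 0.054, 0.051 and 0.15) and when dim probe sets were kept in (adjusted p = 0.066). Its sterile slope was 0.15 (adjusted p = 0.84), and the difference between the slopes did not pass (-0.74, adjusted p = 0.21). The other SAHH probe set had a fertile slope of 0.39 (adjusted p = 0.11). Neither APRT nor AdSS had a course of this kind, with fertile signals at 1.5 and 3.0 mm of 1616 and 1861 for APRT and of 782 and 777 for AdSS.

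APRT and AdSS were weakly correlated in their courses, which was not tested. Over the 10 arrays, which also share their differences in labelling and hybridization, their log2 signals correlated with r = 0.34 and Spearman's rho = 0.14. Both were lower at 2.2 than at 2.0 mm and higher again at 2.5 mm in fertile anthers. At 2.0 mm, however, APRT was higher and AdSS lower in the sterile than in the fertile series. At 1.5 mm this held as deposited, but with each array centred on its median the AdSS difference turned to 0.08.

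Among the 120 other tested probe sets with a gene name, the 5 whose log2 signals over the 10 arrays were most like those of APRT were Tubb5 (r = 0.73), Tubb4 (r = 0.68), TaTPC1 (r = 0.68), tubb3 (r = 0.67) and tubb1 (r = 0.66). The Tubb genes encode beta-tubulins, the subunits of microtubules, and TaTPC1 encodes a calcium-permeable channel. Without the sterile 1.5-mm and the fertile 2.2-mm arrays, on which APRT was farthest from its median, these values were 0.47 to 0.65. With each treatment centred on its own mean they were 0.40 to 0.66, the lowest being those of tubb1 (0.40) and tubb3 (0.41).

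Among the same 120 probe sets, the most opposite courses to APRT were those of CAT1 (r = -0.89, Spearman's rho = -0.94), a catalase that breaks down hydrogen peroxide, and of 2 probe sets of the peroxiredoxin Prx1 (r = -0.88 and -0.86). CAT1 signals were 249, 356, 283, 158 and 60.0 in fertile and 48.4, 50.5, 134, 91.1 and 225 in sterile anthers from the shortest to the longest. Where APRT was highest, in sterile 1.5-mm anthers, CAT1 was lowest, and where APRT was lowest, in fertile 2.2-mm anthers, CAT1 was at its second highest value. Without those 2 arrays the correlation was -0.88.

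Among the named probe sets, those most like AdSS were la-17 (r = 0.91), PIMT (r = 0.84), PMM (r = 0.82), Tubb4 (r = 0.81) and Rab15 (r = 0.74). PIMT (15.7 to 35.5), PMM (12.1 to 54.2) and Rab15 (4.96 to 66.6) were dim, with signals around the array medians of 20.7 to 24.1, and Rab15 was next to the floor of 4.05 on the fertile 2.2-mm array. Tubb4 was among the 5 nearest named probe sets of both genes. For AdSS the likeness rested largely on the fertile 2.0- and 2.2-mm arrays, since without them the 5 values were 0.47 to 0.69, and that of la-17 went from 0.91 to 0.48. The lowest correlations were those of 2 probe sets of rbcl, the large subunit of Rubisco (r = -0.76 and -0.74), and of the alpha-tubulin TUBA (r = -0.72), and without the same arrays they were 0.23, -0.10 and 0.12. Named probe sets are a small part of the array: over all 30589 other tested probe sets, 27 had r above 0.9 and 30 below -0.9 with APRT, and 86 and 4 with AdSS.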

How the data were processed

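The authors deposited linear intensities, 1 MAS5 signal for each probe set and array; the version and scaling target of MAS5 are not given in the sources used here. Of 61290 rows, 111 were controls. Lower signals were raised to a floor of 4.05, the 20th percentile over all arrays, before log2 was taken. The brighter 30590 probe sets, those whose mean log2 signal reached the median, were tested, and p-values were adjusted by Benjamini-Hochberg over all of them, with a threshold of 0.05. Linear models were fitted in R 4.3.3 with limma 3.58.1, its eBayes step following the mean-variance trend. The first held treatment and length (each length a level), which left 4 residual degrees of freedom, and the second an intercept and a slope for each treatment, which left 6. The treatment and slope fits were tested on simulated data.

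Precision is limited by how few arrays there are. The sources used here do not say whether RNA came from separate plants. For treatment, limma p-values set the mean difference against its variation over the lengths. For slopes, they set each slope against the scatter about the lines. In both, technical spread and real changes with length cannot be told apart.

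The genes named are APRT, AdSS, tested members of the purine list and, for each gene, the 5 named probe sets with the highest and the 3 with the lowest correlation. Members and lists were chosen with earlier results of these data known. The table names genes for 1273 probe sets, 866 of them tested. Of these, 200 probe sets (121 tested) carry a name other than a LOC number, and 770 of 771 genes were found in RefSeq's annotation of IWGSC CS RefSeq v2.1. Keywords for purine enzymes could not be used, as these tables hold symbols only. Sequences were not used here.

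The alternatives tried concerned scaling between arrays (quantile normalization or centring on the median), the floor (none, or the 40th percentile), the filter (none, or a stricter one), the trend, the length block, the order of lengths in place of mm, and leaving out each length.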

Additional observations from a re-analysis of the deposited data

Results flagged for a closer look

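Among the 5 sterile minus fertile differences of APRT, the one at 3.0 mm (-0.18 on the log2 scale) lay far from the other 4, which were between 0.28 and 0.40. Its gap to the nearest of them was 0.78 of the whole range. With quantile normalization the gap was 0.82 of the range, and with each array centred on its median it was 0.46, where the value (-0.03) no longer stood apart. It was the only one marked among 6 sets of 5 values examined in this way for APRT and AdSS, and chance marks about 1 set in 20. The 3.0-mm fertile array, on which APRT had its highest fertile signal (1861), also had the lowest mean correlation with the other arrays (r = 0.87), and its part in the difference was not tested.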

How the results depend on the processing

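No call for APRT or AdSS changed under the alternatives. When each length was left out in turn, the sign turned for the AdSS difference (-0.077 to 0.21), the APRT fertile slope (-0.15 to 0.44), the AdSS sterile slope (-0.15 to 0.053) and the AdSS difference of slopes (-0.11 to 0.58). The APRT difference stayed between 0.20 and 0.35 under all alternatives (adjusted p = 0.16 to 0.63). With quantile normalization the difference of slopes of the SAHH probe set that had not passed turned from -0.24 to 0.012. Without the length block, the difference was 0.24 for APRT (adjusted p = 0.36) and 0.09 for AdSS (adjusted p = 0.83). Median centring moved sterile against fertile by 0.09 on average and made these differences 0.33 and 0.18. Counts over all tested probe sets moved far more. The 76 called for treatment became 4 with quantile normalization, 32 with centring, 0 without the filter, 2 without the trend, 9 without the block and 0 to 596 when a length was left out (596 without 3.0 mm). The 1627 called for the fertile slope became 4 without the filter and 0 without 3.0 mm. The 0 called for the difference of slopes became 18 without 1.5 mm. The cause of these changes was not tested. The signals of APRT (1322 or more) and AdSS (471 or more) lay far above the floor of 4.05, and the precision is that of 10 arrays.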
